A study of Mus musculus with 18 samples.

Results

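The genes described here are 42 members of the BMP and TGF-beta signalling pathways, a set of ligands, ligand-processing proteins, receptors, antagonists, SMAD proteins and target genes, followed through 2 histone marks in mouse epidermis. They were taken by name from a list of pathway genes, out of 21887 protein-coding genes on the placed chromosomes, and all 42 were found in the RefSeq annotation of GRCm38. The list was chosen with earlier results of these data known, so its shares beside those of all genes are a description. Every deposited region that overlapped a gene body or the 5 kb on either side of it was assigned to that gene: 29 of 13409 H3K36me2 islands, 11 of 4285 listed H3K27me3 windows and 1 of 730 listed H3K36me2 windows. Of the 42 genes, 24 had at least 1 such region and 18 had none.

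BMPs, activins and TGF-betas are secreted dimers that bring together type I and type II serine/threonine kinase receptors. The receptors phosphorylate SMAD1, SMAD5 and SMAD9 on the BMP side and SMAD2 and SMAD3 on the TGF-beta and activin side. These SMADs enter the nucleus with SMAD4, while SMAD6 and SMAD7 restrain the pathway. In skin, BMP signalling is known for holding hair follicle stem cells at rest and for epidermal and appendage differentiation, and TGF-beta signalling for slowing keratinocyte growth. H3K36me2 is a methyl mark spread over genes and the space between them, and H3K27me3 is the repressive mark laid down by Polycomb.

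Chromatin of dissociated epidermal cells was profiled by CUT&RUN, where a nuclease tethered by an antibody cuts out the DNA that carries a mark. The mutant mice carry Krt14-Cre and LSL-H3K36M, a Cre-switched construct for histone H3 with methionine in place of lysine 36. The WT mice carry LSL-H3K36M without the Cre, so both genotypes share the construct and WT is not a mouse without it. The keratin-14 promoter limits expression of the mutant histone to keratin-14-positive cells and their progeny, while the suspension can hold other cells of the epidermis. Each mark was profiled in 3 mutant and 3 WT samples, named by 6 source numbers that recur across the antibodies, and no source used here gives the age of the mice or says outright that each number is 1 animal. The deposited values are per genotype, so no spread between samples can be shown beside them.

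The H3K36me2 island table rests on 59539924 mutant reads and 47361190 WT reads, pooled by genotype. An island is a stretch that the SICER2 caller found rich in reads, and it was called lower or higher where the authors' FDR was under 0.05. That test compares the reads of both pools and carries no error between samples. Of all islands, 58.1% were lower and 17.3% were higher in the mutant. Over all islands the log2 fold had a median of -0.30, so a fold is also described relative to that shift where it matters. Island folds are scaled to pool size, window values are normalised reads, and no source used here gives a spike-in. Lower, higher, falling and rising are thus relative to the other reads, and absolute change of either mark cannot be read from them. DiffBind, which treats the samples as replicates, tested 18072 windows of 401 bp for each mark and called 15.2% of H3K27me3 windows falling and 8.54% rising. It called 0 H3K36me2 windows at FDR under 0.05, and 730 had a nominal p under 0.05 (4.04% of windows tested). Epidermal identity could not be checked by expression in these tables. Of 7 epidermal marker genes, 3 had a lower and 3 a higher island, 0 had a falling and 1 (Trp63) a rising H3K27me3 window. Of all protein-coding genes, 12.2% had a lower and 7.14% a higher island, and 20.6% had any. A falling window was found at 7.43% of them and a rising one at 2.65%, so a gene without a region is common. None of the 3 immune markers had a region, while among 4 endothelial and fibroblast markers Vwf and Pecam1 each had a lower island and a rising window and Pdgfra a falling window. Mitf and Dct, of 3 melanocyte markers, had a lower island. The part of such cells in the results below was not tested, and in bulk tissue fewer cells that carry a mark and less of the mark per cell cannot be told apart.

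H3K36me2 at the pathway genes was lower at most called islands. Of the 29 islands, 17 were lower and 6 were higher in the mutant, and 6 were called neither way. These shares, 58.6% and 20.7%, lie beside 58.1% and 17.3% of all islands. The median log2 fold was -0.31 over the 29 islands and -0.30 over all islands, so the pathway islands as a group lay close to islands in general. Their size was also ordinary, with a median width of 5000 bp in both sets and a median of 168 mutant and 167 WT reads, against 170 and 165 reads over all islands. By gene, 10 of 42 had a lower island (23.8%, against 12.2% of all protein-coding genes) and 6 had a higher one (14.3%, against 7.14%), with Smad1 and Tgfbr3 counted in both (4.76%, against 2.23%). Any island was found at 16 of the 42 genes (38.1%, against 20.6%). The pathway genes are long, with a median of 39968 bp against 17169 bp over all genes, and over all genes the share with an island was 42.9% at 80 kb or more and 11.5% under 20 kb.

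**Figure D1:**
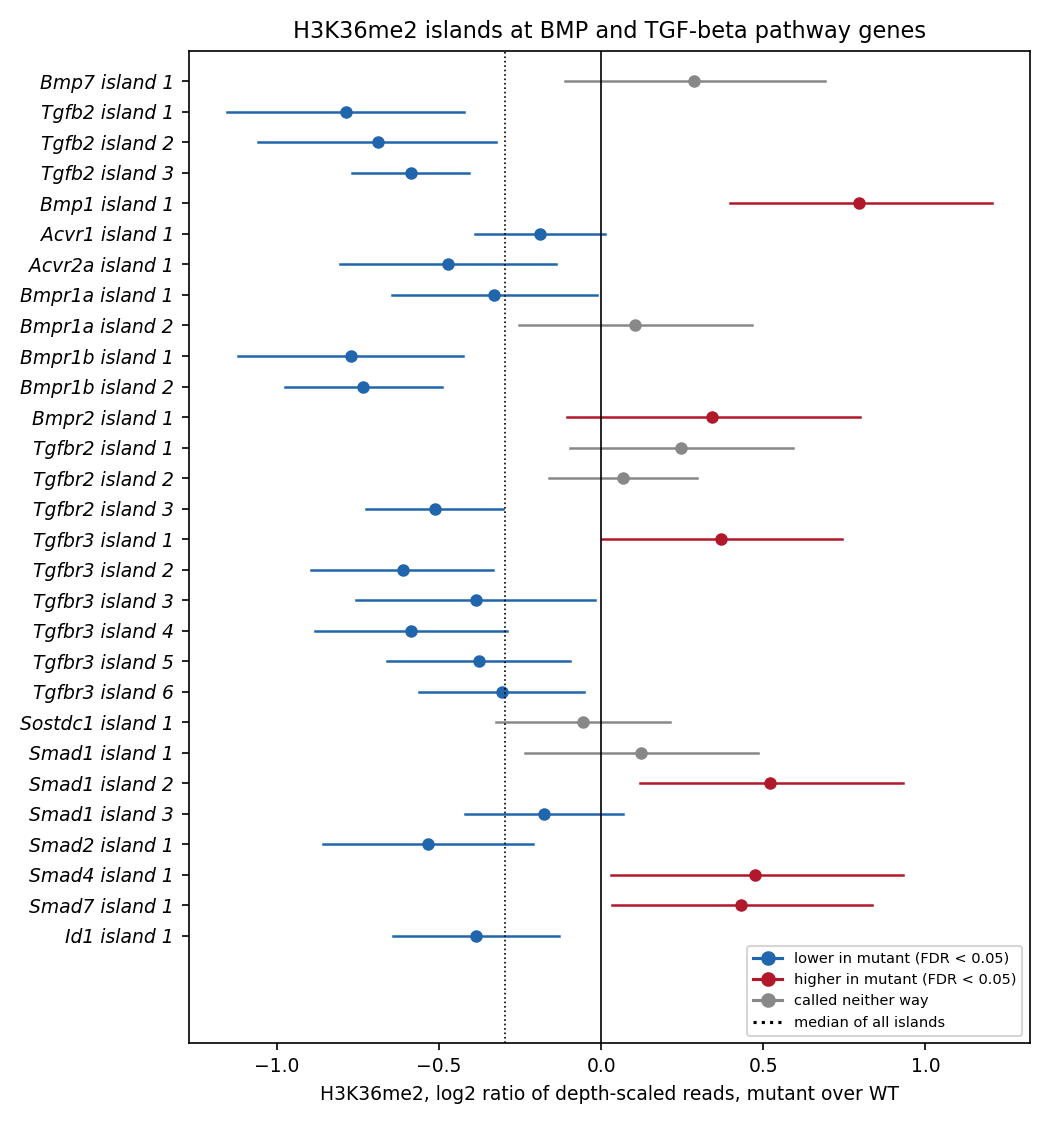
Each point is 1 H3K36me2 island at a pathway gene, with the log2 ratio of mutant over WT reads scaled to pool size on the x axis and its exact binomial 95% interval, which covers counting error only. Rows run from ligands through receptors and antagonists to SMADs and targets, and islands of 1 gene are numbered along the chromosome. All 3 Tgfb2 and both Bmpr1b islands lie left of the dotted median of all islands (-0.30), and the Bmp1 island lies farthest to the right.

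Among the ligand genes, Tgfb2 held the clearest decrease in H3K36me2. Tgfb2 encodes TGF-beta 2, a ligand made by keratinocytes and important in hair follicle formation. Its 3 islands were on chromosome 1, beyond the 3' end and in the 3' part of a gene that reads from high to low coordinates. The island from 186615001 to 186618800, in the flank beyond the gene, held 110 mutant and 151 WT reads (fold 0.581, FDR 2.13e-09 in the authors' deposited table). The island from 186639601 to 186643600 held 113 mutant and 145 WT reads (fold 0.621, FDR 1.71e-07 in the authors' deposited table). The widest, 16200 bp from 186651601 to 186667800, held 460 mutant and 550 WT reads (fold 0.666, FDR 6.79e-18 in the authors' deposited table). All 3 were lower in the mutant, and over the 24000 bp they cover the read ratio was 0.642 (exact binomial 95% interval 0.580 to 0.711). The centres of the islands lay 89089, 64389 and 46289 bp downstream of the RefSeq start, so none of them touched the promoter.

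The other ligand genes had few islands. Bmp7, a BMP ligand of kidney, eye and skin development, had 1 island with 135 mutant and 88 WT reads, and it was called neither way (fold 1.22, FDR 0.0602 in the authors' deposited table). None of the remaining 13 ligand genes had an island. Gdf10, a BMP3-related ligand, was the only pathway gene with 1 of the 730 listed H3K36me2 windows (2.38%, against 1.89% of all genes), which ran from 33923157 to 33923557 on chromosome 14, at the promoter. The authors' deposited table gives it 2.0 normalised reads in the mutant and 1.0 in WT (p = 0.0302, FDR 1.0). The WT mean is the floor of the scale and the window did not pass the FDR, so it is given as a value only.

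Bmp1 had the strongest increase in reads scaled to pool size. It encodes the protease that cleaves procollagen and the BMP antagonist chordin, and is a ligand-processing enzyme, not a BMP ligand. Its island, 3600 bp inside the gene on chromosome 14 from 70508401 to 70512000, held 168 mutant and 77 WT reads (fold 1.72, FDR 1.83e-09 in the authors' deposited table). The read ratio was 1.74 with an exact binomial interval of 1.32 to 2.30, and 98.9% of all islands had a lower fold. Ltbp1, which stores latent TGF-beta in the matrix, is the longest gene of the set at 387033 bp and had no region in any table. The island nearest to it lay 716879 bp away.

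Receptor genes carried most of the islands, 16 of the 29, of which 11 were lower and 2 higher, where 58.1% and 17.3% of all islands were. Of the 9 receptor genes, 6 had a lower island (12.2% of all genes did) and 7 had any (20.6% of all genes). Receptor genes are long, with a median of 92276 bp, and of all genes of 80 kb or more 29.6% had a lower island and 42.9% had any. Bmpr1b, a type I BMP receptor best known from cartilage, had 2, both inside its 332451 bp on chromosome 3. The first, from 142031801 to 142037200, held 123 mutant and 167 WT reads (fold 0.587, FDR 6.87e-10 in the authors' deposited table). The second, from 142116801 to 142127800, held 251 mutant and 332 WT reads (fold 0.602, FDR 1.74e-16 in the authors' deposited table). Together they had a read ratio of 0.596 (0.520 to 0.683) over 16400 bp.

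Tgfbr3 held the most islands, 6, in both directions. It encodes betaglycan, the co-receptor that presents TGF-beta 2 and binds inhibin. Its 5 lower islands all lay inside the gene body on chromosome 5, centred between 59.7 and 179 kb from the end with the lower coordinate. Their folds ran from 0.654 at the island from 107163001 to 107169600 (194 mutant and 236 WT reads, FDR 3.10e-09) to 0.808 at the one from 107281801 to 107289000 (259 and 255 reads, FDR 9.70e-04) in the authors' deposited table. The sixth, from 107104201 to 107108400 across the gene end with the lower coordinate, was higher, with 164 mutant and 101 WT reads (fold 1.29, FDR 0.00571 in the authors' deposited table). Summed over 32600 bp of islands, Tgfbr3 had 1122 mutant and 1143 WT reads, a ratio of 0.781 (0.718 to 0.849). That interval includes the median fold of all islands (0.814).

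The other receptor genes had 0 to 3 islands each. Tgfbr2, the type II TGF-beta receptor that limits keratinocyte growth, had 2 islands in the gene called neither way (folds 1.18 and 1.05) and a lower one of 10800 bp upstream of its start, with 5.83 mutant and 8.32 WT RPM (reads scaled to pool size, fold 0.701, FDR 1.08e-10, all in the authors' deposited table). Bmpr1a, the type I BMP receptor needed for hair follicle differentiation, had a lower island with 169 mutant and 169 WT reads (fold 0.795, FDR 0.00357 in the authors' deposited table), where the equal counts come from pools of unequal depth, and a second with 154 and 114 reads called neither way. Acvr1, a type I receptor for BMPs and activin, had a lower island with 430 mutant and 390 WT reads (fold 0.877, FDR 0.00966 in the authors' deposited table). Bmpr2, the type II BMP receptor, had a higher island of 2200 bp in its 5' flank with 110 mutant and 69 WT reads (fold 1.26, FDR 0.0413 in the authors' deposited table). Acvr2b and Tgfbr1 had no region.

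Acvr2a, a type II activin receptor, had its island just upstream of the start. It ended 508 bp before the gene on chromosome 2, from 48809201 to 48813600, and had 146 mutant and 161 WT reads (fold 0.722, FDR 9.11e-05 in the authors' deposited table). Its promoter is shown beside that of Tgfb2, whose lower islands lie far from the start, because the 2 stand near opposite ends of the range of CpG content in this set. The sequences are RefSeq promoters of GRCm38.p6, from 250 bases before to 50 bases after the start, 5' to 3' on the strand of the gene, with CpG dinucleotides in capitals. Acvr2a is at chr2:48813859-48814158 on the plus strand and Tgfb2 at chr1:186705940-186706239 on the minus strand.
Acvr2a: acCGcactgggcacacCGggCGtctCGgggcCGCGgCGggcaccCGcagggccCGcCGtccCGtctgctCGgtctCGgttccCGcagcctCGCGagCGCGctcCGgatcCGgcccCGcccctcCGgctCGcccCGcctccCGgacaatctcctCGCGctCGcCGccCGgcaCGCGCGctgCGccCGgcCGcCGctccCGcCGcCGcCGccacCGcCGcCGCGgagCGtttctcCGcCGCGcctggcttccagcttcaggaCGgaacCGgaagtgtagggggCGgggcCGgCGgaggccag
Tgfb2: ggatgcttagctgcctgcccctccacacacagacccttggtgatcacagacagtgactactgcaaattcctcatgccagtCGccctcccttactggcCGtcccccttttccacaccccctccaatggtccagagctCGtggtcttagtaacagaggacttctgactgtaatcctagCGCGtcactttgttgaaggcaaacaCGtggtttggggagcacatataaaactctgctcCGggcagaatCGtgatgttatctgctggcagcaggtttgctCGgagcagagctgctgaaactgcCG
The Acvr2a promoter held 54 CpGs and the Tgfb2 promoter 10, against a median of 13 over 17492 promoters of protein-coding genes and of 27 over the 27 pathway genes with a promoter in the table. Of all promoters, 99.5% had fewer CpGs than that of Acvr2a and 42.8% fewer than that of Tgfb2.

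The SMAD genes were mixed. Of 6 receptor-activated and common SMAD genes, Smad2, the TGF-beta transducer, had a lower island that ended 89 bp from the gene (151 mutant and 174 WT reads, fold 0.691, FDR 5.54e-06 in the authors' deposited table). Smad4, the partner of all receptor SMADs, had a higher island inside the gene (117 and 67 reads, fold 1.38, FDR 0.00272 in the authors' deposited table). Smad1, a BMP transducer, had 3 islands: 1 higher (146 and 81 reads, fold 1.43, FDR 2.17e-04), 1 called neither way (fold 1.09) and 1 lower (296 and 266 reads, fold 0.885, FDR 0.0405), all in the authors' deposited table. Summed over Smad1 the ratio was 1.03 (0.912 to 1.17), an interval that includes 1 and lies above the median fold of all islands (0.814). Smad3, Smad5 and Smad9 had no region. Smad7, an inhibitory SMAD gene, had a higher island of 3000 bp (144 and 85 reads, fold 1.34, FDR 0.00246 in the authors' deposited table).

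Id1, Id2 and Id3 encode inhibitors of helix-loop-helix factors and are classical BMP targets. Only Id1 had a region, a lower island 3450 bp from the gene with 251 mutant and 261 WT reads (fold 0.765, FDR 4.12e-05 in the authors' deposited table). The nearest islands to Id2 and Id3 lay 11708 and 28008 bp away. Sostdc1, a BMP and WNT antagonist of skin appendages, had an island across 1 gene end that was called neither way (255 and 211 reads, fold 0.961 in the authors' deposited table). The other 4 antagonist genes had none.

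Islands were also sorted by place. All 6 islands in flanks outside the gene body were called, 5 lower and 1 higher, with a median log2 fold of -0.49. The 23 that overlapped the body had a median of -0.18, with 12 lower and 5 higher. Over all islands the medians were -0.44 outside and -0.12 overlapping gene bodies, with 72.5% lower and 8.11% higher outside and 45.0% lower and 25.7% higher overlapping, and the difference within the set was not tested.

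These calls rest on read pools. An exact binomial test at the same scaling, with Benjamini-Hochberg adjustment over all islands, called 13 of the 29 lower and 2 higher (Bmp1 and Smad1). Over all 13409 islands it called 6377 lower and 1401 higher. The calls at Acvr1, Bmpr1a, Bmpr2, Smad4, Smad7, the third Smad1 island, the first Tgfbr3 island and the third Tgfbr3 island did not pass it. Relative to the median of all islands 4 islands were lower (2 at Bmpr1b and 2 at Tgfb2) and 10 higher, beside 1853 lower and 3722 higher of all 13409. The lower calls at Acvr1, Acvr2a, Bmpr1a, Smad1, Smad2, Tgfbr2, Id1, Tgfbr3 and the second Tgfb2 island did not pass this test. Their folds still lay below that median, except at Acvr1 and the third Smad1 island, where they lay above it.

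**Figure D2:**
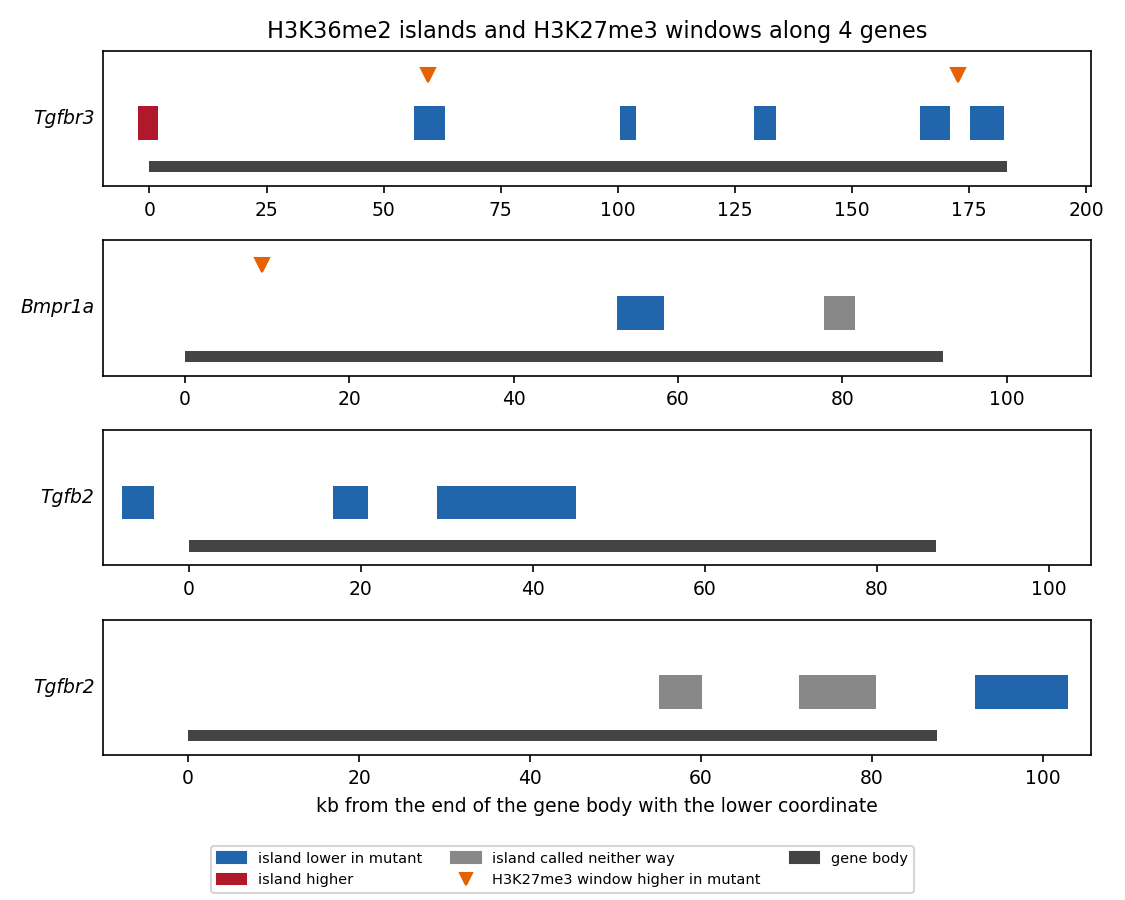
Islands (bars) and H3K27me3 windows (triangles) along 4 genes, with the distance in kb from the gene end with the lower coordinate on the x axis. At Tgfbr3 the first of 2 rising H3K27me3 windows falls inside a lower island and the second in the gap between 2 lower islands, while at Tgfb2 and Tgfbr2 no H3K27me3 window was listed.

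H3K27me3 changed at 9 of the 42 genes, and fell at 7 of them. Falling windows lay at 4 ligand genes (Gdf6, Gdf7, Inhbb and Bmp6), 2 antagonist genes (Grem1 and Fst) and the inhibitory SMAD gene Smad6, and the receptor genes Bmpr1a and Tgfbr3 had rising ones. Of the 42 genes 16.7% thus had a fall, while 7.43% of all genes did, and 4.76% had a rise, while 2.65% of all genes did. In all, 8 windows fell and 3 rose. At an FDR under 0.01, falling windows were left at 4 genes (Gdf6, Gdf7, Grem1 and Smad6) and a rising one at Tgfbr3 alone. That is 4 of 8 falling and 1 of 3 rising windows, where 2097 of all 2742 falling and 639 of all 1543 rising windows passed. The pathway calls were thus more often marginal than calls in general, a difference that was not tested. Windows not called are not listed, so how many were tested at the pathway genes is not known, and a gene with no listed window is not shown to lack the mark.

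**Figure D3:**
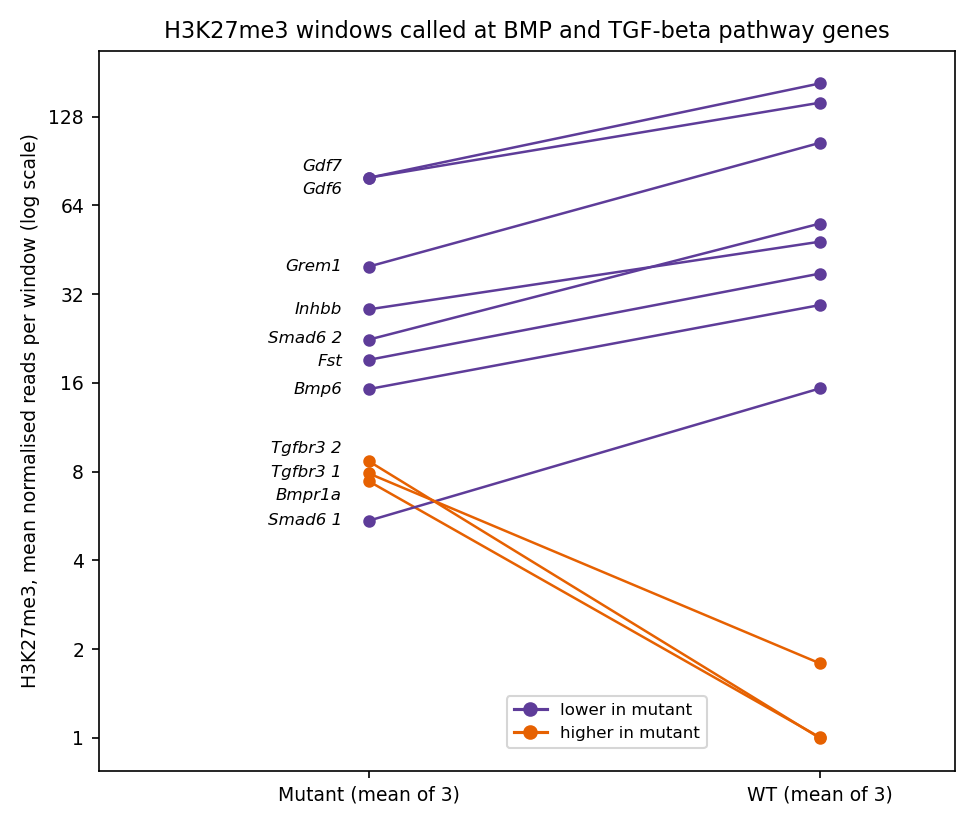
Mean normalised H3K27me3 reads in mutant (left) and WT (right) samples for the 11 called windows, on a log scale, with 2 windows each at Smad6 and Tgfbr3 numbered along the chromosome. The 8 falling windows lie between 5.46 and 79.4 reads in the mutant and between 15.3 and 166 reads in WT, and the 3 rising ones lie between 7.42 and 8.67 in the mutant and at or below 1.79 in WT.

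Among the 11 called windows, those at Gdf6 and Gdf7 had the highest H3K27me3 means in both genotypes. They encode related BMP family ligands, of skeletal and neural development in particular. The Gdf6 window, on chromosome 4 from 9845872 to 9846272, had 79.4 mutant and 166 WT normalised reads (log2 fold -1.0, FDR 1.61e-07 in the authors' deposited table). The Gdf7 window, on chromosome 12 from 8300779 to 8301179, had 79.4 mutant and 143 WT reads (log2 fold -0.79, FDR 8.26e-05 in the authors' deposited table). It lay 975 bp downstream of the Gdf7 start and also inside the body of Ldah, a lipid droplet hydrolase gene, so it cannot be given to Gdf7 alone. WT levels at these windows exceeded 98.9% and 96.7% of all 2742 falling windows, and both still held more reads in the mutant than the median falling window in WT (51.6).

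Grem1 had the largest fall in log2 fold. It encodes gremlin, a secreted BMP antagonist. Its window, on chromosome 2 from 113757249 to 113757649, had 39.7 mutant and 104 WT reads (log2 fold -1.32, FDR 8.77e-09 in the authors' deposited table), 1199 bp downstream of the start. Fst, which encodes the activin and BMP binder follistatin, fell to 19.2 mutant reads, against 37.5 in WT, on chromosome 13 from 114454403 to 114454803 (log2 fold -0.84, FDR 0.0177 in the authors' deposited table). Chrd and Nog, the other major BMP antagonists in the set, had no listed window.

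Smad6 had 2 falling windows. The one on chromosome 9 from 64018249 to 64018649, 3610 bp downstream of the start, had 22.4 mutant and 55.5 WT reads (log2 fold -1.13, FDR 3.10e-04 in the authors' deposited table). The other, from 63999624 to 64000024 and 22235 bp downstream of the start, had 5.46 mutant and 15.3 WT reads (log2 fold -1.05, FDR 0.0295 in the authors' deposited table). Both windows fell, and the one nearer the start had the higher level in each genotype. Inhbb, the inhibin and activin beta B subunit gene, had 28.4 mutant and 48.2 WT reads (log2 fold -0.67, FDR 0.0454 in the authors' deposited table). Bmp6, a BMP ligand of the suprabasal epidermis, had 15.2 mutant and 29.4 WT reads at a window 63269 bp from its start (log2 fold -0.78, FDR 0.0450 in the authors' deposited table).

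The median falling pathway window had 25.4 mutant and 51.8 WT reads and a log2 fold of -0.92, against 21.2, 51.6 and -1.10 over all falling windows. The fall at these genes was thus near the middle of the general range in level, and somewhat smaller in fold, a difference that was not tested.

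The promoters of Grem1, Gdf7, Inhbb and Smad6 are shown because a falling window of each lies within 5 kb of the start, and H3K27me3 is known to gather at CpG-rich starts. They are at chr2:113758599-113758898, chr12:8301905-8302204, chr1:119422199-119422498 and chr9:64022010-64022309, all on the minus strand, from RefSeq for GRCm38.p6, 5' to 3', with CpGs in capitals.
Grem1: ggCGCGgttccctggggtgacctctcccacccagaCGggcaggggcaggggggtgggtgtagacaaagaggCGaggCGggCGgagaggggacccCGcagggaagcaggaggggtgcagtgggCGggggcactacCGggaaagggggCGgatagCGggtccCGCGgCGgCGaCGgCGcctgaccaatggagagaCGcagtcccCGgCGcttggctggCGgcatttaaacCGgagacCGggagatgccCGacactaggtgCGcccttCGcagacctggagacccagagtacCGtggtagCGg
Gdf7: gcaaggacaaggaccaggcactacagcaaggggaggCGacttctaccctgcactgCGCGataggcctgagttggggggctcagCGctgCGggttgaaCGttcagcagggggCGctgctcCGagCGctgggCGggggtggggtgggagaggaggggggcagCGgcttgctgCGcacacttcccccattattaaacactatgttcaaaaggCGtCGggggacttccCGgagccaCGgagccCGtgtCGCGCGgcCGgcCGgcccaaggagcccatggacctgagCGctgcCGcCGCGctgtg
Inhbb: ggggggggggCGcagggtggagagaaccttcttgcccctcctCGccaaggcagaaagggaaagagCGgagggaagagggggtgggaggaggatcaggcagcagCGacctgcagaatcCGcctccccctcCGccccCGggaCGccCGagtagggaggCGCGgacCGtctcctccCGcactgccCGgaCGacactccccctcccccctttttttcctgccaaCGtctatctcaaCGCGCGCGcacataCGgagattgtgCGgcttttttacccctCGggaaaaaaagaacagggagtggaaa
Smad6: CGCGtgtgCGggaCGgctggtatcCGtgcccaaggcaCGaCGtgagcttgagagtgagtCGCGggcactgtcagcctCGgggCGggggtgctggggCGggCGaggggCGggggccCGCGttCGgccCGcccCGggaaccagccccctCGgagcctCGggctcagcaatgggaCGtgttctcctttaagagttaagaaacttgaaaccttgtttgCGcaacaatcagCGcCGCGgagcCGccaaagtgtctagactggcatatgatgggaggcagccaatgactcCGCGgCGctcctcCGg
They held 28, 26, 23 and 31 CpGs. The 5 of 7 genes with a falling window that are in the promoter table had between 23 and 31 CpGs, a median of 27. The 22 other pathway promoters had a median of 26 and ranged from 4 to 54. The ranges of both groups overlap, and both medians lay above the median of 13 over all promoters. The promoters were also searched on both strands for 2 palindromic SMAD motifs, GGCGCC and GTCTAGAC, which do not overlap each other. GGCGCC was in 9 of 27 pathway promoters (33.3%, against 15.4% of all promoters). These were 1 of the 5 with a falling window at the gene and 8 of the 22 others. The motif is all G and C and holds a CpG. Median GC content was 66.3% in pathway promoters and 56.3% in all promoters, and its part was not tested. GTCTAGAC was in 1 pathway promoter (3.70%, against 0.212%, or 37 of 17492). The single match was in Smad6, a known BMP target gene, in bases 247 to 254 of the promoter, across the start. The stretch with the motif in capitals reads as follows.
Smad6 motif: ccgccaaagtGTCTAGACtggcatatga
A match is a description of the sequence, and no SMAD binding was measured here.

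The rising windows were weak in both genotypes. Tgfbr3 had 2 on chromosome 5. The one from 107278946 to 107279346 had 8.67 mutant and 1.0 WT normalised reads (log2 fold 1.40, FDR 0.00941 in the authors' deposited table). The one from 107165940 to 107166340 had 7.88 mutant and 1.79 WT reads (log2 fold 1.09, FDR 0.0482 in the authors' deposited table). At Bmpr1a the window on chromosome 14 from 34420275 to 34420675 had 7.42 mutant and 1.01 WT reads (log2 fold 1.23, FDR 0.0238 in the authors' deposited table). At 2 of the 3 windows WT is at or next to the floor of 1 read, so the size of the rise depends on that floor. The deposited log2 folds are also smaller than the ratio of the printed means would give. Mutant levels there exceeded 7.52% to 14.3% of all 1543 rising windows, which places them among the weaker ones.

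Tgfbr3 and Bmpr1a had called regions of both marks. At Tgfbr3 the window with the weaker call (FDR 0.0482, authors' deposited table) lay inside the island with a fold of 0.654. The other (FDR 0.00941, authors' deposited table) lay outside the islands, 1545 bp from the one with a fold of 0.770. At Bmpr1a the rising window lay 41074 bp from the nearest island, a lower one beyond the gene with a fold of 0.713, and the lower island inside the gene was farther away. Both genes with a rising window had a lower island, and among all 579 genes with a rising window 51.8% had one. None of the 7 genes with a falling window had any island, and among all 1627 genes with a falling window 9.77% had one, against 20.6% of all genes. With 9 genes these counts are a description. Gene length moved with it in this set: the median was 9970 bp for the 7 genes and 138000 bp for the 2. It was 43400 bp for the 1627 genes and 77700 bp for the 579, against 17169 bp over all genes. The part of gene length was not tested.

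**Figure D4:**
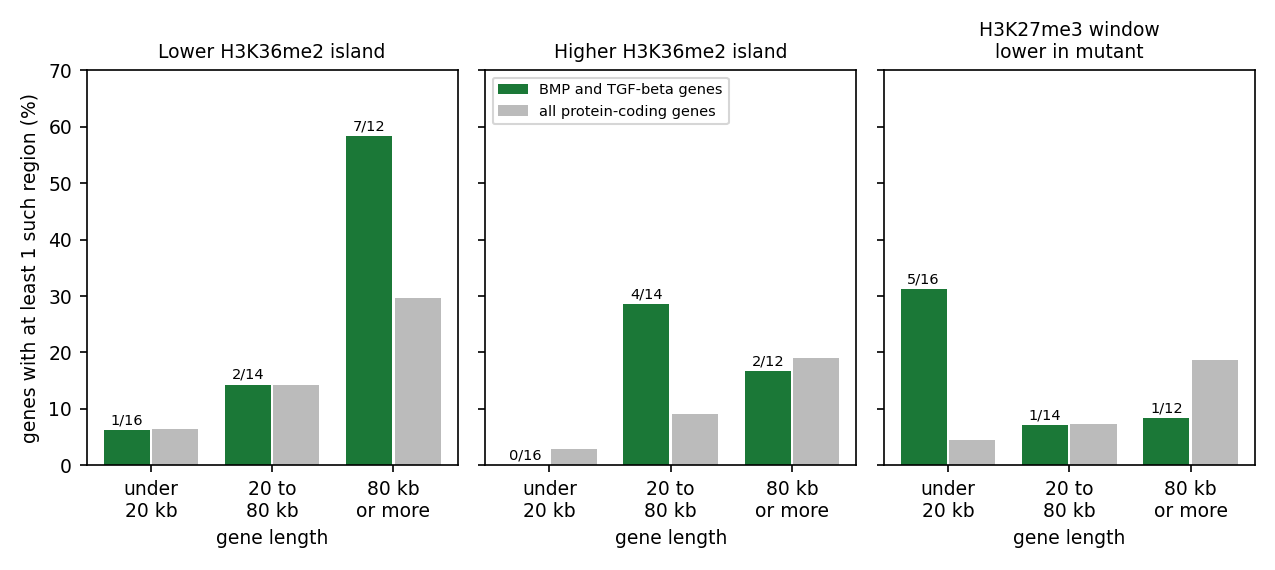
Share of genes with at least 1 region of each kind, in 3 classes of gene length, for pathway genes (green, with counts) and all protein-coding genes (grey). Among genes of 80 kb or more, 7 of 12 pathway genes had a lower H3K36me2 island, against 29.6% of all such genes, and among genes under 20 kb 5 of 16 had a falling H3K27me3 window, against 4.54%.

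Gene length was set beside these counts, in classes chosen after the data were seen. Of 12 pathway genes of 80 kb or more, 7 had a lower island (58.3%, against 29.6% of all 3139 such genes) and 2 a higher one (16.7%, against 19.0%). Of the 14 genes between 20 and 80 kb, 2 had a lower island (14.3%, as in all genes of that length) and 4 a higher one (28.6%, against 9.04%): Bmp1, Smad1, Smad4 and Smad7. Of the 16 genes under 20 kb, 1 had a lower island (6.25%, against 6.38%) and 0 a higher one. Falling H3K27me3 windows ran the other way. They were found at 5 of the 16 short genes (31.2%, against 4.54%), Fst, Gdf6, Gdf7, Grem1 and Inhbb, and at 1 of 12 of the longest (8.33%, against 18.6%). The short ones are mostly ligand and antagonist genes and the long ones mostly receptor genes, so length and role cannot be told apart in this set.

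The 18 genes without a region were the ligand genes Bmp2, Bmp3, Bmp4, Bmp5, Gdf5, Inhba, Tgfb1 and Tgfb3, the receptor genes Acvr2b and Tgfbr1, the antagonist genes Chrd and Nog, Ltbp1, Smad3, Smad5, Smad9, Id2 and Id3. Their nearest H3K36me2 island lay between 11708 bp (Id2) and 769421 bp (Tgfbr1) from the gene. Smad5 had a falling H3K27me3 window 10480 bp away, the nearest of this kind to any of them.

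A wider list of 70 further pathway genes was counted in the same way. Lower islands were found at 11 of 70 (15.7%, against 12.2% of all genes), higher ones at 4 (5.71%, against 7.14%), falling windows at 12 (17.1%, against 7.43%) and a rising window at 1 (1.43%, against 2.65%). Their 28 islands had a median log2 fold of -0.04, against -0.30 over all islands, and 12 were lower and 6 higher. Over all islands 58.1% were lower and 17.3% higher. Crim1 alone held 7 of the 28 islands. Over all islands the median was -0.12 where they overlapped gene bodies and -0.44 outside them. The 28 islands were not sorted by place, and their difference from all islands was not tested. In the authors' deposited table, fold was lowest, 0.506, at Skil, a SMAD corepressor gene, followed by 0.535 and 0.662 at Bmper, which binds BMPs, and 0.703 at Twsg1, a chordin partner. The highest in the authors' deposited table were 1.64 and 1.36 at Crim1, a BMP-binding membrane protein gene, 1.57 at Ski, a SMAD corepressor gene, and 1.55 at Thbs1, an activator of latent TGF-beta. The deepest H3K27me3 falls were at Dcn, the decorin gene (7.37 mutant and 28.0 WT reads, log2 fold -1.48), Tll2, a BMP1-like protease gene (26.5 and 71.8 reads, -1.29), Bmper (48.2 and 126 reads, -1.28) and Fbn2, a fibrillin gene (9.43 and 21.9 reads, -0.98) in the authors' deposited table. Of the 70, 3 had called regions of both marks. Bmper and Fbn2 had a lower island and a falling window each, with gaps of at least 199888 and 204964 bp between them. Itgb6, which encodes a subunit of the TGF-beta-activating integrin of epithelia, had a lower island (155 and 174 reads, fold 0.709) and the only rising window (16.9 mutant and 6.64 WT reads, log2 fold 1.02, FDR 0.0310, all in the authors' deposited table).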

How the data were processed

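CUT&RUN libraries for IgG, H3K36me2 and H3K27me3, 3 per genotype, were read in pairs of 37 bp, per the labels. Bowtie2, DiffBind, DESeq2, SICER and the build GRCm38 (mm10) are named without versions in the submitters' processing notes. No source used here gives the pooling, a spike-in or a blacklist. IgG was not analysed here.

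The deposited DiffBind tables hold log2 mean normalised reads per genotype, a log2 fold that differs from the plain difference of those means, and a p-value and FDR for windows of 401 bp, per the file headers. Means are printed after conversion from log2. The 18072 windows tested were inferred from FDR over p at the smallest p. The SICER2 table holds read counts per genotype pool, RPM, a ratio (fold of mutant over WT) and p-values per island, per the file headers. A note in it names the pools. Folds are printed as deposited and hold 1 read added to each count, while the read ratios computed here hold no added read. Each deposited count over its RPM gave the pool size.

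Regions were assigned to RefSeq GRCm38.p6 genes by an overlap of at least 1 bp with the gene body and 5 kb flanks, with SICER2 positions converted to 1-based. Distances to a start are given where the promoter table holds one. Calls are the authors' FDR under 0.05, and no test across samples was made. Read ratios carry exact binomial 95% intervals, which cover counting error only. An exact binomial test over all islands was tested on simulated data. Alternatives were other flanks, midpoints, FDR under 0.01, that test, and folds relative to the median. Python 3.11.15, numpy 2.4.6, pandas 2.3.3, scipy 1.17.1 and matplotlib 3.10.9 were used. The members, lists and rule for named genes were chosen with earlier results of these data known. Every member with a region is named, with full values for those with a called H3K27me3 window, the 5 islands with the largest fold each way, and members with islands called both ways or regions of both marks. Of the 70 further genes, those called for both marks and the 4 largest folds per table and direction are named.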

Additional observations from a re-analysis of the deposited data

How the results depend on the processing

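No paired analysis was possible because the tables hold no column per library, so single samples could not be left out either. With gene bodies only, 6 genes had a lower island in place of 10, and the Gdf10 H3K36me2 window was no longer counted (0 in place of 1). Relative to the median of all islands, 2 genes had a lower island, through 4 islands in place of 17, and 10 islands were higher in place of 6. The log2 folds of Acvr1 (0.11) and of the third Smad1 island (0.12) then reversed. The exact binomial test at the deposited scaling left 2 genes with a higher island, through 2 islands. At an FDR under 0.01, 4 genes kept a falling H3K27me3 window in place of 7, through 4 windows in place of 8, and 1 gene and 1 window remained rising in place of 2 and 3. Counts under the other alternatives stayed within 1.5 times. Shares of all genes are given for the main setting only, so these changed gene counts cannot be set against genes in general. Of 23 called islands, 15 stayed called under the binomial test and 10 relative to the median. The median log2 fold of the pathway islands, -0.31, was -0.18 with gene bodies only, -0.18 by midpoints, -0.25 with 10 kb flanks, and -0.012 relative to the median of all islands. Low read numbers per island and the floor of 1 read per window limit the precision.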
